A study of Mus musculus with 5 samples.

Results

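The unfolded protein response genes described here are 10 of the 41028 gene names in the deposited matrices. They were chosen by name, with earlier results of these data known, and all 10 were found: Hspa5, Hsp90b1, Pdia4, Sdf2l1, Dnajb9, Herpud1, Xbp1, Atf4, Ddit3 and Trib3. They were measured by single-cell RNA sequencing in mammary tumours of the PyMT mouse, a model in which the middle T antigen of polyoma virus is made in the mammary gland and drives tumours there. All 5 libraries come from such tumours, and the labels give no age, strain, promoter of the transgene or number of animals and no tumour-free control. Tumours were digested and enriched for viable cells. Fresh cells went onto the 10x Genomics Chromium 3' v2 system, which captures cells in droplets (fresh 10x 1 and fresh 10x 2). A digest kept overnight at 4 °C, labelled 24 h, until its viability had dropped by at least 20% went onto the same system (stored 10x). The other 2 libraries were made on BD Rhapsody, which captures cells in microwells, with its whole transcriptome assay (BD 1, labelled fresh, and BD 2, whose title says fresh and whose files are named for 24 h). Nothing says that fresh 10x 1 and 2 came from separate animals, so p-values measure a spread between these libraries, which may be technical. In comparisons within libraries, that spread is how the difference varies from library to library.

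The unfolded protein response is the programme by which cells match the folding capacity of the endoplasmic reticulum (ER) to the load of secreted and membrane proteins. Its sensors are IRE1 (Ern1), which splices the mRNA of the transcription factor Xbp1, PERK (Eif2ak3), which slows translation while the transcription factor Atf4 is made, and Atf6, which is cut to release a transcription factor. Secretory cells such as milk-producing mammary epithelium and antibody-producing plasma cells are known for high basal use of the Xbp1 arm. Of the members, Hspa5 encodes BiP, the main ER chaperone, and Hsp90b1 encodes GRP94, the ER member of the HSP90 family. Pdia4 encodes a disulfide isomerase, and Sdf2l1 and Dnajb9 encode partners of BiP. Herpud1 encodes a membrane protein of ER-associated degradation (ERAD). Xbp1, Atf4 and Ddit3 (CHOP) encode transcription factors, and Trib3 encodes a pseudokinase that is a target of Atf4 and CHOP. UMI counts at the 3' end do not separate spliced from unspliced Xbp1.

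The upstream sequences of Hspa5, Hsp90b1 and Herpud1 are shown because they hold the elements through which the response is known to act. They are RefSeq promoters on GRCm38.p6, 250 bases up to the start site, read 5′ to 3′ on the strand of the gene, with motif matches in capitals. The windows are chr2:34771840-34772089 on the plus strand for Hspa5, chr10:86705445-86705694 on the minus strand for Hsp90b1 and chr8:94386179-94386428 on the plus strand for Herpud1.
Hspa5: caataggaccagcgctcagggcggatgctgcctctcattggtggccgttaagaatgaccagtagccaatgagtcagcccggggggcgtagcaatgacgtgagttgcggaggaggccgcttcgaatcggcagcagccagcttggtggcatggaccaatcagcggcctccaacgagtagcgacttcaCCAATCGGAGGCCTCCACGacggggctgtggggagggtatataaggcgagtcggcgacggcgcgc
Hsp90b1: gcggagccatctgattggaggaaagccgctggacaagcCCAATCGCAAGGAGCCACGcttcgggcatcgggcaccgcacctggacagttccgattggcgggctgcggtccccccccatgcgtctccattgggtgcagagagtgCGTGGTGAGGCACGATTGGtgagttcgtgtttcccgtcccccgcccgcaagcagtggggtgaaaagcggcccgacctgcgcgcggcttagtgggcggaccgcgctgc
Herpud1: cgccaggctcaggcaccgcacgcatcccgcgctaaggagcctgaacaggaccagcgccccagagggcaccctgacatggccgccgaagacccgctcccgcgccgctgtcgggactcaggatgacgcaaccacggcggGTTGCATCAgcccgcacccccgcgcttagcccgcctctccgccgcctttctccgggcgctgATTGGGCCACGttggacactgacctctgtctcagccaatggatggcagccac
Hspa5 holds the ER stress element (ERSE, the letters CCAAT, any 9 bases and CCACG) from -65 to -47 relative to the start site. Hsp90b1 holds it on the gene's strand from -212 to -194 and on the opposite strand from -107 to -89. Herpud1 holds ERSE-II (the letters ATTGG, any base and CCACG) from -52 to -42 and, on the opposite strand from -113 to -105, a match to the C/EBP-ATF response element (CARE, letters TGATGNAAN). Both strands were searched in all 10 members over 300 bases, which adds 50 bases after the start site. In that window 0.119% of 32851 RefSeq mouse promoters held ERSE, 0.0365% held ERSE-II and 3.95% held CARE. Trib3 held a CARE match after the start site, from 13 to 21. No member held TGACGTGG, a core of the unfolded protein response element that 0.676% of promoters held. The bare end CCACG, which lies inside ERSE and ERSE-II, was in 32.8% of promoters and says little. A match is a description of letters and not a measured site.

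In GENCODE M21 on GRCm38, the members are protein-coding genes, counted over whole genes. Hspa5 lies at chr2:34771970-34777547, Hsp90b1 at chr10:86690209-86705509 and Pdia4 at chr6:47796141-47813430. Sdf2l1 lies at chr16:17130138-17132383, Dnajb9 at chr12:44205559-44210326 and Herpud1 at chr8:94386438-94395377. Xbp1 lies at chr11:5520659-5525893, Atf4 at chr15:80255184-80257541, Ddit3 at chr10:127290774-127296288 and Trib3 at chr2:152337422-152344032. Ddit3 overlaps Mars and Gm4189 on the other strand, Herpud1 overlaps Gm15890, Dnajb9 overlaps Mir5627, Pdia4 overlaps Mir704, and Hsp90b1 overlaps 1810014B01Rik, Gm15344 and Gm25745. Whether the counting took strand into account is not given in the sources used here, and the counts of these genes are uncertain to that extent.

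The deposited libraries held 29166129 to 59957945 UMIs over all their cells, with 8926 to 12474 UMIs in the median cell, and 1864 to 4078 cells per library were clustered. The median share of mitochondrial UMIs was 6.14%, 6.99% and 7.17% in the 10x libraries, 15.2% in BD 1 and 19.8% in BD 2. At most 5 cell barcodes were shared between 10x libraries and 24 between BD 1 and BD 2. Cells were clustered without the members and the wider pathway genes and named from marker genes as epithelial-like (1352, 1347, 2757, 2627 and 2957 cells in fresh 10x 1, fresh 10x 2, stored 10x, BD 1 and BD 2) and fibroblast-like (206, 125, 362, 339 and 238 cells). The 8 epithelial markers summed to 3262 to 6127 counts per 1000000 UMIs in epithelial-like cells, and none of the 6 fibroblast markers was at 0 in fibroblast-like cells. Counts were summed per library and class. Levels below are UMIs per 1000000 UMIs of the class (CPM), always in the library order just given.

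Across cell classes, Xbp1, Trib3 and Sdf2l1 were higher in epithelial-like cells and Hsp90b1 and Pdia4 in fibroblast-like cells. Xbp1 was at 834, 646, 772, 1009 and 883 CPM in epithelial-like cells and at 195, 174, 251, 240 and 265 CPM in fibroblast-like cells. Every epithelial-like value lay above every fibroblast-like one. Hsp90b1 was at 605, 643, 564, 758 and 806 CPM in epithelial-like cells and at 1084, 1049, 822, 1316 and 1283 CPM in fibroblast-like cells, with no overlap of the 2 groups. Pdia4 was at 119, 127, 92.0, 99.8 and 108 CPM in epithelial-like and 210, 225, 141, 159 and 174 CPM in fibroblast-like cells, again with no overlap. The share of all genes without overlap of the 2 classes was not counted. Trib3 was at 15.3 to 22.3 CPM in epithelial-like cells but rested on 2, 4, 10, 22 and 23 UMIs in fibroblast-like cells, or 0.769 to 6.10 CPM.

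**Figure D1:**
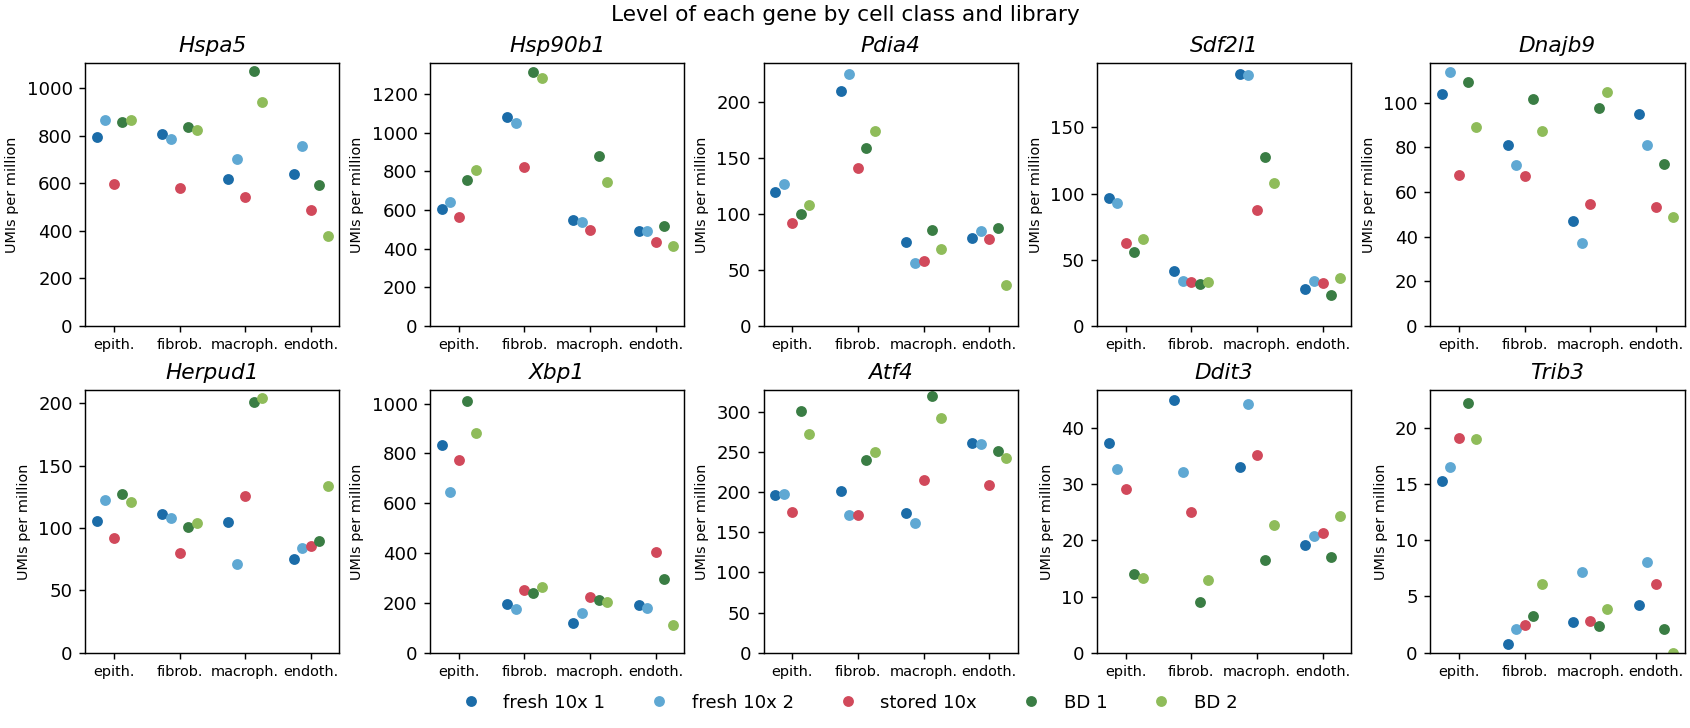
Level of each gene (CPM, linear axis from 0) in epithelial-like, fibroblast-like, macrophage-like and endothelial-like cells, 1 point per library and no error bars. Xbp1 and Trib3 stand highest in epithelial-like cells, Hsp90b1 and Pdia4 in fibroblast-like cells, and the stored 10x points for Hspa5 (597 and 578) lie below both fresh 10x points in both classes.

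Fibroblast-like cells were tested against epithelial-like cells with edgeR's quasi-likelihood test over 14823 genes, with the library as a block, so each library is its own control. By this test 2 members were higher in fibroblast-like cells, where 31.1% of all genes were, and 4 were lower, where 41.3% of all genes were. These shares are high, so the count of members called is close to the background and is no result about the members. The median log2 difference was -0.21 over the members and -0.18 over all genes. Hsp90b1 was higher by 0.66 on the log2 scale (SE 0.09, edgeR adjusted p = 0.000148) and Pdia4 by 0.66 (SE 0.09, edgeR adjusted p = 0.000119), both in 5 of 5 libraries. Xbp1 was lower (log2 -1.94, SE 0.10, edgeR adjusted p = 3.63e-07), as were Trib3 (log2 -2.71, SE 0.25, edgeR adjusted p = 1.38e-05) and Sdf2l1 (log2 -1.12, SE 0.10, edgeR adjusted p = 9.48e-06), each in 5 of 5 libraries. Dnajb9 was lower by a small margin (log2 -0.28, edgeR adjusted p = 0.0306), a call lost under 9 of the alternatives, among them DESeq2 (adjusted p = 0.127), the fit without the library block (edgeR adjusted p = 0.35) and the fits without fresh 10x 1, fresh 10x 2, BD 1 or BD 2. Hspa5 (log2 -0.11, SE 0.08), Ddit3 (-0.17, SE 0.14), Atf4 (-0.19, SE 0.09) and Herpud1 (-0.23, SE 0.09) did not pass. With the fibroblast-like cells of the cluster led by Dcn and Clec3b alone, Herpud1 (-0.44, edgeR adjusted p = 0.000585), Atf4 (-0.39, edgeR adjusted p = 0.00316) and Hspa5 (-0.24, edgeR adjusted p = 0.0464) did pass. With no low-count filter Herpud1 (edgeR adjusted p = 0.0188) and Atf4 (edgeR adjusted p = 0.0439) also passed, as did Herpud1 without fresh 10x 1 (edgeR adjusted p = 0.0184).

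The wider pathway lists were counted in the same test. Of 16 chaperones and foldases, 9 were higher in fibroblast-like cells and 4 lower. The disulfide isomerase gene Pdia5 led (log2 3.76, edgeR adjusted p = 4.49e-08, with 46.9 to 88.7 CPM against 2.83 to 7.70), followed by Dnajc10 (1.37), which encodes an ER reductase, while the oxidase genes Ero1lb (-1.78) and Ero1l (-1.42) were lower. Of 18 targets of Atf4 and CHOP, 3 were higher, led by the transcription factor Atf5 (2.11) and the mitochondrial folate enzyme Mthfd2 (1.24), and 11 lower, led by Atf3 (-2.98), a stress-induced transcription factor, and Psat1 (-2.78), an enzyme of serine synthesis. Of 13 ERAD and translocon genes, 6 were higher, led by Derl1 (0.88) and Selenok (0.63), and 4 lower, led by Derl3 (-3.76), a derlin, and Edem2 (-0.72). Of 6 sensor genes tested, 4 were higher, led by Ern1 (0.73) and Mbtps1 (0.73), and 0 lower. The members thus followed no single direction, and neither did 3 of these lists.

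In other classes the members stood at different levels again, described here without a test. Macrophage-like cells held Sdf2l1 at 190, 190, 87.9, 128 and 108 CPM, above the epithelial-like level of the same library in all 5. Endothelial-like cells held Sdf2l1 at 23.4 to 36.4 CPM and Pdia4 at 36.4 to 87.3 CPM, with only 13 such cells in BD 2. T-like cells without plasma cells held Hspa5 at 365 to 666 CPM, below the epithelial-like level of the same library in all 5.

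Secretory states of the epithelium were then compared with the remaining epithelial-like cells. The milk-protein-high cells are the top 10% of epithelial-like cells of each library by the share of their UMIs from 8 milk protein genes (caseins, Wap, Lalba and Glycam1). The median share was 4.26% to 6.6% in these cells and 1.34% to 2.22% in the others. The share runs without a break, with 69 to 159 cells per library within 10% of the boundary, so the state is a range and not a cell type. Of the list's UMIs, 43.7% came from Csn3 in the high cells and 79.1% in the others, while Csn2 gave 14.8% and 1.01%. Between 32.8% and 46.6% of the high cells fell in the cluster led by Csn2 and Csn1s2a.

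Milk-protein-high cells held more of the ER chaperone transcripts. Hspa5 was at 1086, 1151, 754, 1023 and 1018 CPM in the high cells and at 765, 836, 582, 839 and 848 CPM in the others. It was higher in each library, and the stored library was lowest in both groups of cells. Dnajb9 was at 147, 130, 94.7, 127 and 117 CPM against 99.6, 112, 64.7, 107 and 86.3 CPM. Xbp1 was at 1019, 750, 960, 1292 and 1066 CPM against 816, 636, 752, 979 and 864 CPM. Both were higher in 5 of 5 libraries, as were Sdf2l1 (59.8 to 120 against 55.5 to 95.8 CPM), Pdia4 (97.4 to 145 against 91.6 to 125 CPM) and Hsp90b1 (568 to 889 against 564 to 797 CPM).

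With edgeR and the library as a block, 8 of 10 members were higher in milk-protein-high cells, where 13.4% of 13455 genes were, and 0 were lower, where 12.8% were. The median log2 difference was 0.34 over the members and -0.01 over all genes. Dnajb9 rose by 0.57 (SE 0.06, edgeR adjusted p = 4.61e-06), Hspa5 by 0.55 (SE 0.04, edgeR adjusted p = 1.37e-07) and Xbp1 by 0.49 (SE 0.05, edgeR adjusted p = 5.03e-07). Sdf2l1 (0.40), Pdia4 (0.37) and Hsp90b1 (0.30) also rose, with edgeR adjusted p of 4.12e-05, 3.39e-05 and 0.000114. With total counts these 3 still passed, at 0.23, 0.20 and 0.13, and Xbp1 at 0.32. Without the cycling cells described below Sdf2l1 stood at 0.83 and Hsp90b1 at 0.49, and with the top 5% of cells Hsp90b1 stood at 0.19. The calls of Herpud1 (0.22) and Atf4 (0.18) rest on the scaling, since total counts put the median over all genes at -0.18. With total counts Herpud1 stood at 0.05 (edgeR adjusted p = 0.492) and Atf4 at 0.01 (edgeR adjusted p = 0.902), and in CPM they were higher in 3 and 2 of 5 libraries. With the top 5% of cells in place of 10%, Herpud1 stood at -0.064 (edgeR adjusted p = 0.579), and without the cycling cells at 0.11 (edgeR adjusted p = 0.193). The Atf4 call was also lost without fresh 10x 1, stored 10x or BD 1 (edgeR adjusted p = 0.111, 0.0719 and 0.074), without the filter on low counts (0.107) and with the top 20% of cells (0.0524). Ddit3 (0.10) and Trib3 (0.04) did not pass, and with total counts their values were -0.06 and -0.13, while Ddit3 passed with the top 20% of cells (0.23, edgeR adjusted p = 0.0282). Without the library block no member passed, and the lowest edgeR adjusted p was 0.0974, for Hspa5.

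Among pathway genes in the same test, 14 of 16 chaperones and foldases and 10 of 13 ERAD and translocon genes were higher and none was lower. Ero1lb (0.64) and the BiP exchange factor gene Sil1 (0.56) led the first list, and Derl3 (0.75) and Selenos (0.43) the second. The targets of Atf4 and CHOP went both ways: 7 of 18 were higher, led by Chac1 (1.09) and Asns (0.48), and 4 lower, led by Mthfd2 (-0.90) and Phgdh (-0.54). Of 6 sensor genes tested, 0 passed in either direction.

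The second state was defined alike, as the top 10% by the share of UMIs from 23 genes of secretoglobins, Pip and other exocrine secretory proteins. The median share was 0.263% to 0.651% in these cells and at most 0.00807% in the others. Scgb2b27 gave 68.0% and Scgb1b27 18.9% of the list's UMIs in the high cells, and 51.0% to 66.9% of these cells fell in the cluster led by those genes. Of the 132 to 296 cells of each state per library, 12 to 32 belonged to both states.

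In secretoglobin-high cells the members split. Herpud1 was at 178, 243, 143, 202 and 210 CPM against 96.0, 113, 85.7, 119 and 111 CPM in the other cells. The high cells of each library lay above the other cells of all 5 libraries. The share of all genes that lay apart in this way was not counted. Xbp1 was at 1317, 805, 1116, 1250 and 1183 CPM against 771, 633, 728, 982 and 849 CPM, higher in 5 of 5 libraries. Hspa5 went the other way, at 658, 825, 539, 660 and 726 CPM against 812, 869, 606, 878 and 880 CPM. Atf4 was at 143, 172, 153, 235 and 230 CPM against 204, 200, 178, 309 and 277 CPM, also lower in 5 of 5 libraries. Trib3 was at 8.75 to 17.3 CPM against 16.1 to 22.8 CPM and lower in 5 of 5.

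**Figure D2:**
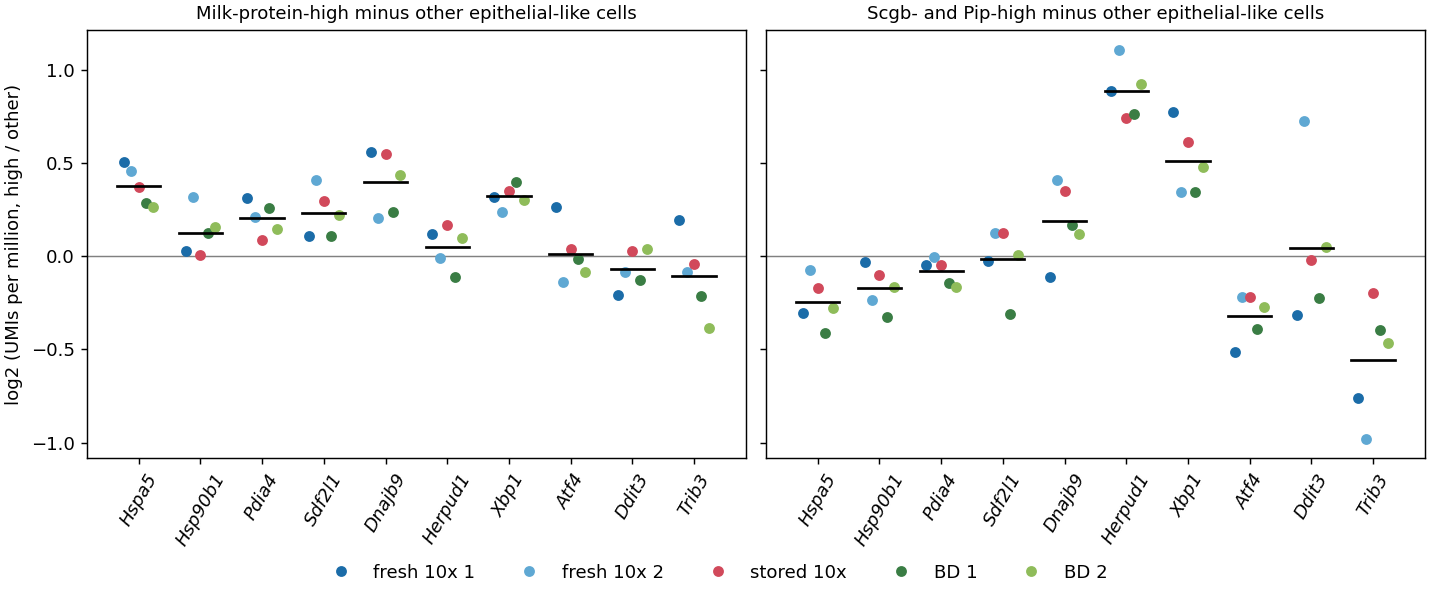
Difference of each gene between secretory-state cells and the other epithelial-like cells of the same library (log2 ratio of CPM), left for milk proteins and right for secretoglobins and Pip, with 1 point per library and a bar at the mean. The points of Hspa5 lie above 0 on the left and below 0 on the right, Herpud1 stands highest on the right, and Xbp1 lies above 0 in both.

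By edgeR with the library as a block, 3 members were higher in secretoglobin-high cells, where 14.1% of 13528 genes were, and 4 were lower, where 13.8% were. The median log2 difference was -0.03 over the members and -0.02 over all genes. Herpud1 rose by 0.90 (SE 0.06, edgeR adjusted p = 1.3e-06) and Xbp1 by 0.53 (SE 0.06, edgeR adjusted p = 3.95e-05). Dnajb9 was at 0.21 (edgeR adjusted p = 0.049), a call lost under 10 of 15 alternatives, total-count scaling among them (edgeR adjusted p = 0.068) and each fit without fresh 10x 2, stored 10x, BD 1 or BD 2 (adjusted p 0.114 to 0.17). Trib3 (-0.45, SE 0.11, edgeR adjusted p = 0.0108), Atf4 (-0.30, SE 0.06, edgeR adjusted p = 0.00237) and Hspa5 (-0.23, SE 0.05, edgeR adjusted p = 0.00636) were lower. Hsp90b1 was lower too (-0.15, edgeR adjusted p = 0.0314), but not without fresh 10x 2, BD 1 or BD 2 (adjusted p 0.0703 to 0.178) or without the cycling cells (adjusted p = 0.412), nor with DESeq2 (adjusted p = 0.0535). Sdf2l1 (0.01), Pdia4 (-0.06) and Ddit3 (0.07) did not pass, but Sdf2l1 did without the cycling cells (0.24, edgeR adjusted p = 0.0313). Without the library block only Herpud1 passed.

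Around Herpud1, the ERAD machinery was higher as well: 8 of 13 ERAD and translocon genes passed upward and 0 downward, led by Derl3 (log2 1.01, edgeR adjusted p = 3.32e-06) and Sel1l (0.80, edgeR adjusted p = 4.05e-06), the partner of the ubiquitin ligase Hrd1. Sel1l was at 75.2, 90.6, 70.1, 105 and 112 CPM against 41.1, 51.7, 46.3, 62.5 and 60.1 CPM. Of the chaperones and foldases 1 of 16 was higher (Ero1lb, 0.36) and 3 lower, led by Calr (-0.20) and Pdia6 (-0.19). Of the targets of Atf4 and CHOP, 4 were higher, led by Asns (0.56) and Vldlr (0.56), and 4 lower, led by Psat1 (-0.90) and Ppp1r15a (-0.35). The PERK gene Eif2ak3 (0.32) was the 1 sensor gene of 6 to pass. The difference between the 2 secretory states was not itself tested.

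Depth and mitochondrial share were compared as well. Median UMIs per cell were 10573 to 13333 in milk-protein-high cells and 10757 to 13986 in the others, and 11772 to 15719 in secretoglobin-high cells and 10713 to 13909 in the others. The median mitochondrial share of milk-protein-high cells was lower than that of the others in each library (6.06% against 6.73% in fresh 10x 1, 18% against 19.6% in BD 2), and that of secretoglobin-high cells was higher in each (7.05% against 6.63% and 19.7% against 19.4%). The part of depth and mitochondrial share in these differences was not tested.

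Across the epithelial-like clusters the members did not move as 1 group, which is described here without a test because clusters share the genes that formed them and were picked out after their values were seen. In the cluster led by the cell-cycle genes Ube2c and Birc5 (cycling cells), Sdf2l1 was at 193, 145, 103, 106 and 124 CPM, above all epithelial-like cells of the same library by 0.84 ± 0.15 (SD, n = 5 libraries). Values by cluster are differences in log2 of CPM plus 1. Hsp90b1 (0.55 ± 0.08), Hspa5 (0.40 ± 0.07) and Pdia4 (0.38 ± 0.07) also stood highest there, each in 5 of 5 libraries. Ddit3 (-0.67 ± 0.12) and Dnajb9 (-0.62 ± 0.19) stood lowest there. The median cycling cell held 2.52 times the UMIs of the median cell of its library, and the part of depth was not tested.

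The cluster led by Spp1 and Fcgbp had the immediate early genes Fosb, Egr1 and Fos and also Atf3 among its leading genes. It was the reverse for Dnajb9, Ddit3, Sdf2l1, Hsp90b1 and Pdia4, but not for all members. Dnajb9 was at 154, 190, 96.9, 182 and 142 CPM there, 0.64 ± 0.10 above all epithelial-like cells, and Ddit3 at 48.1, 43.2, 46.9, 21.7 and 21.7 CPM, 0.53 ± 0.15 above, each in 5 of 5 libraries. Sdf2l1 (-0.58 ± 0.23), Hsp90b1 (-0.30 ± 0.05) and Pdia4 (-0.26 ± 0.09) were below in 5 of 5, and Hspa5 was level (-0.00 ± 0.05). Xbp1 was below in both the Spp1 and the cycling cluster (-0.17 and -0.24). Atf4 was above in both (0.23 and 0.10). Herpud1 (0.71 ± 0.08) and Xbp1 (0.45 ± 0.15) stood highest in the Scgb2b27 cluster. In the Csn2 cluster Xbp1 was above (0.27 ± 0.05, 5 of 5) but Herpud1 was below in 5 of 5 libraries (-0.66 ± 0.11), at 74.9, 78.4, 58.8, 74.0 and 71.6 CPM, and Hspa5 was at 0.12 ± 0.12. Sdf2l1 was below there as well (-0.33 ± 0.12, above in 0 of 5 libraries). Hsp90b1 (-0.12 ± 0.22) and Dnajb9 (-0.08 ± 0.14) were above in 1 of 5 libraries each, and Pdia4 (0.02 ± 0.08) in 3 of 5. The milk-protein-high cells defined by share and the Csn2 cluster overlap in part. They did not give Herpud1, Hspa5, Sdf2l1, Hsp90b1, Dnajb9 and Pdia4 the same values.

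The cluster led by the basal keratin genes Krt14 and Krt5 held the lowest Xbp1 (-1.43 ± 0.56) and Sdf2l1 (-1.14 ± 0.41) and low Herpud1 (-0.94 ± 0.12), each below in 5 of 5 libraries. The Ltf and Slpi cluster, with enough cells in 3 libraries, was alike for Xbp1 (-1.21 ± 0.31), Herpud1 (-1.20 ± 0.37) and Sdf2l1 (-1.0 ± 0.28). Atf4 was slightly above in both, by 0.22 ± 0.09 and 0.20 ± 0.19.

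**Figure D3:**
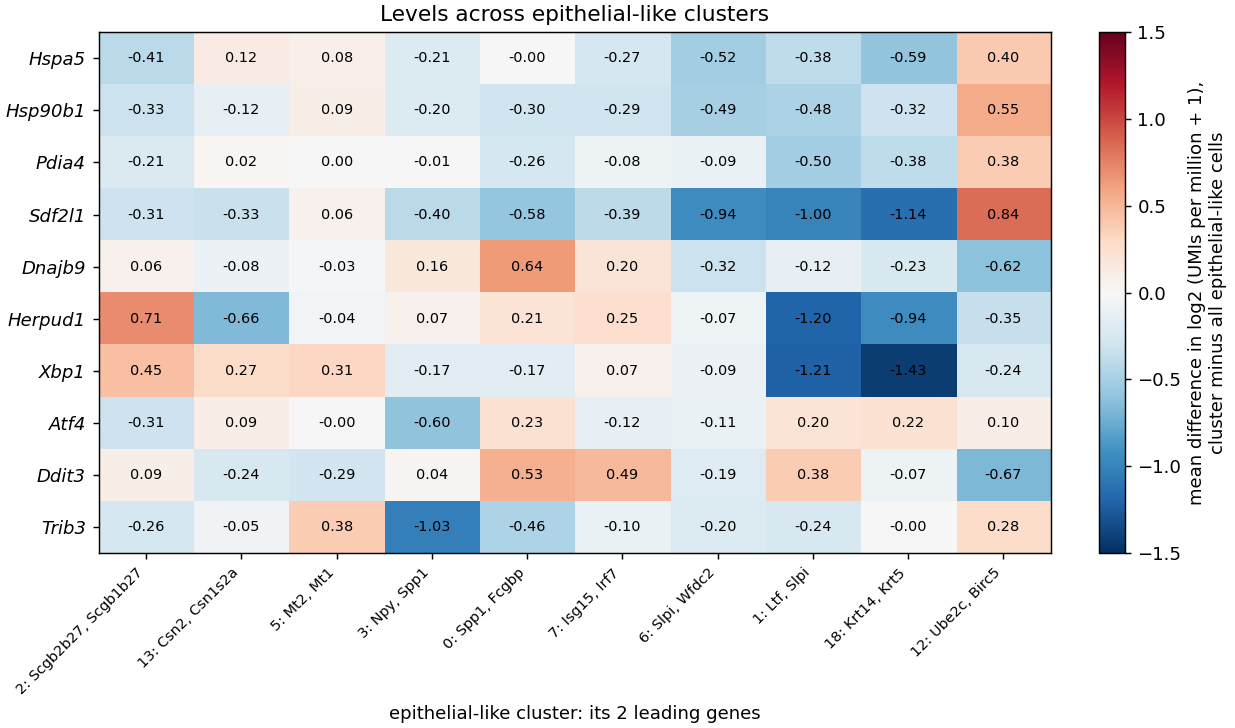
Mean over libraries of the difference in log2 of CPM plus 1 between an epithelial-like cluster and all epithelial-like cells of the library, for each gene, in 10 clusters named by 2 leading genes, red above and blue below. The cycling column (Ube2c) is red for Sdf2l1 (0.84) and blue for Ddit3 (-0.67), and the Krt14 and Ltf columns are dark blue for Xbp1.

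Over 47 points (a cluster in a library, at least 50 cells each, with each library's mean removed) Pearson's r between members was highest within the chaperones. It was 0.86 for Sdf2l1 with Hsp90b1, 0.84 for Sdf2l1 with Pdia4, 0.80 for Hspa5 with Sdf2l1 and 0.80 for Hspa5 with Hsp90b1. Other pairs were Xbp1 with Herpud1 (0.70) and Ddit3 with Dnajb9 (0.57). Ddit3 ran against Hsp90b1 (-0.56) and Atf4 against Herpud1 (-0.55), and Ddit3 with Atf4, its known activator, stood at 0.02. Points of a library share its chemistry and depth and points of a cluster its cells, so these values are descriptions and carry no p. Of 5889 genes compared, the 5 most like Hspa5 were Alad (0.83), Pradc1 (0.82), Prdx4 (0.81), Fkbp11 (0.80) and Rpn1 (0.80). Those most like Ddit3 included Eif4a2 (0.80), Lnpep (0.75), Zbtb4 (0.75) and Plekhf1 (0.75).

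**Figure D4:**
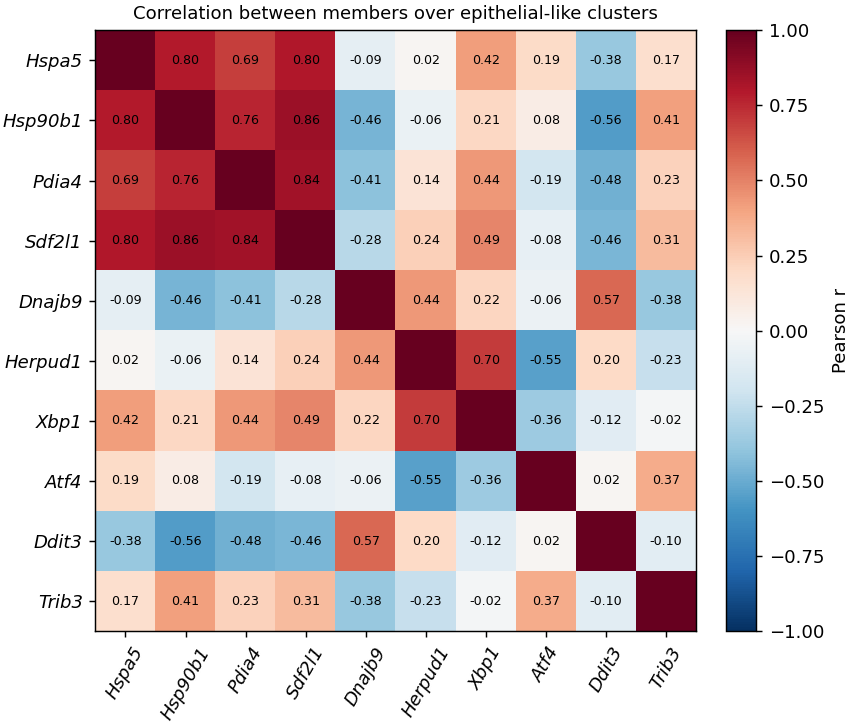
Pearson's r between each pair of genes over 47 points, each an epithelial-like cluster in 1 library, on levels centred within libraries (log2 of CPM plus 1). Hspa5, Hsp90b1, Pdia4 and Sdf2l1 form a red block (0.69 to 0.86), and Dnajb9 and Ddit3 are blue against Hsp90b1 (-0.46 and -0.56).

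Storage of the digest was examined within classes, with stored 10x (1 library) against the 2 fresh 10x libraries. In epithelial-like cells 8 of 10 members had a stored value below both fresh ones, by amounts that did not pass the test. The share of all genes below both was not counted, so this number has no background to be read against. Dnajb9 was at 104 and 114 CPM in the fresh libraries and 67.5 CPM in the stored one. Sdf2l1 was at 96.5 and 92.5 against 62.3 CPM, and Hspa5 at 794 and 865 against 597 CPM. Pdia4 was at 119 and 127 against 92.0 CPM, Herpud1 at 105 and 123 against 92.2 CPM, and Ddit3 at 37.3 and 32.7 against 29.1 CPM. In each of these the stored value lay outside the fresh pair, on the low side, as it did for Atf4 (197 and 198 against 175 CPM) and Hsp90b1 (605 and 643 against 564 CPM). Xbp1 (834 and 646 against 772 CPM) lay within the pair, and Trib3 (15.3 and 16.6 against 19.1 CPM) above it.

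By edgeR over 14002 genes, 0 members passed in either direction, where 0.664% of genes were higher and 0.186% lower. At an unadjusted p under 0.05 there were 4 of 10 members, all lower, and 2292 of all 14002 genes in either direction. DESeq2 called 1 member. Dnajb9 stood at -0.68 (SE 0.12, edgeR adjusted p = 0.0606), Sdf2l1 at -0.59 (SE 0.12, edgeR adjusted p = 0.08), Hspa5 at -0.46 (SE 0.14, edgeR adjusted p = 0.176) and Pdia4 at -0.41 (SE 0.12, edgeR adjusted p = 0.163). The median log2 difference was -0.27 over the members and -0.00 over all genes. The 3 libraries leave 1 residual degree of freedom, and the calls move with the fit: Dnajb9 passed with DESeq2 (adjusted p = 0.0163), with the BD libraries sharing the spread (edgeR adjusted p = 0.0399) and without either fresh library, and Sdf2l1 with no low-count filter (edgeR adjusted p = 0.00998) or without either fresh library. Without fresh 10x 1 Herpud1 and Pdia4 passed too (edgeR adjusted p = 0.0382 and 0.0339). Of 53 pathway genes tested 0 passed by edgeR, against 11 at an unadjusted p under 0.05 (9 lower) and 1 by DESeq2. The 11 stand beside the 2292 of all 14002 genes given above.

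The lower values were also looked at by cluster. Among the 8 epithelial-like clusters with at least 50 cells in all 3 of these libraries, stored 10x lay below both fresh libraries in 8 of 8 for Hspa5, Dnajb9 and Pdia4 and in 7 of 8 for Sdf2l1. It did so in 6 of 8 for Atf4 and Herpud1, in 4 of 8 for Ddit3 and Hsp90b1, and in 0 of 8 for Xbp1 and Trib3. The clusters come from the same 3 libraries and are not replicates, and the share over all genes was not counted.

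In fibroblast-like cells the stored value lay below both fresh ones for 7 of 10 members. Here too the share of all genes below both was not counted. Pdia4 was at 210 and 225 CPM in the fresh libraries and 141 CPM in the stored one. Hspa5 was at 805 and 784 against 578 CPM, Herpud1 at 111 and 108 against 79.7 CPM, Hsp90b1 at 1084 and 1049 against 822 CPM and Ddit3 at 45 and 32.2 against 25.1 CPM. Sdf2l1 (41.1 and 33.8 against 33.3 CPM) and Dnajb9 (81.1 and 72.2 against 67.3 CPM) lay just below the lower fresh value. Xbp1 lay above the pair, at 195 and 174 against 251 CPM. Atf4 (202 and 171 against 172 CPM) lay within the fresh pair.

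**Figure D5:**
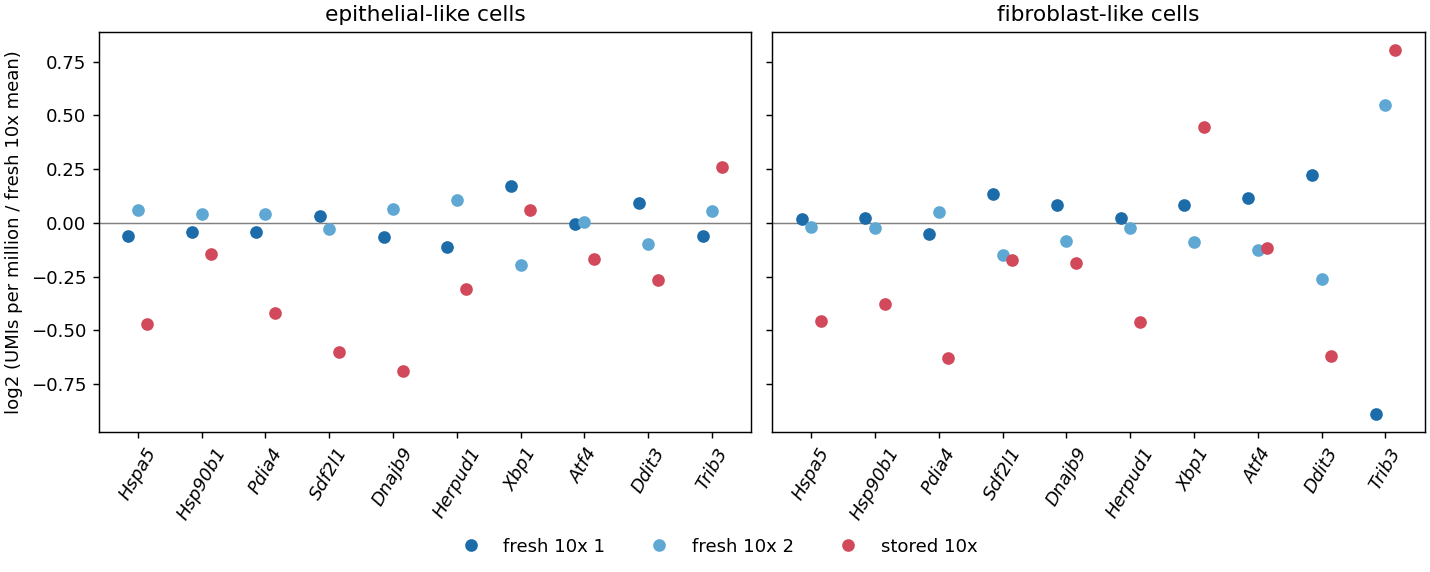
Each 10x library against the mean of the 2 fresh 10x libraries (log2 ratio of CPM), in epithelial-like cells on the left and fibroblast-like cells on the right, 1 point per library. The stored points of Hspa5 and Pdia4 lie below 0 in both panels and that of Xbp1 lies above the fresh points on the right, while Trib3 on the right rests on 2, 4 and 10 UMIs.

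By edgeR over 11230 genes 0 of 9 members tested were higher, where 8.01% of genes were, and 1 was lower, where 7.2% were. Pdia4 fell by 0.63 on the log2 scale (SE 0.18, edgeR adjusted p = 0.0139). That call was lost with DESeq2 (adjusted p = 0.509), without fresh 10x 2 (edgeR adjusted p = 0.0674) and within either main fibroblast cluster. At an unadjusted p under 0.05 there were 6 of 9 members, 5 of them lower, and 2990 of all 11230 genes in either direction. DESeq2 called 0 members. Hspa5 stood at -0.46 (edgeR adjusted p = 0.0645), Ddit3 at -0.64 (edgeR adjusted p = 0.0596), Herpud1 at -0.46 (edgeR adjusted p = 0.0816) and Xbp1 at 0.44 (edgeR adjusted p = 0.0854), which passed within the Cilp cluster described next (0.64, edgeR adjusted p = 0.00494). The median was -0.38 over the members and 0.00 over all genes. Trib3 had too few UMIs to be tested.

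The makeup of the fibroblast-like cells differed between libraries. The cluster led by Postn, Col1a1 and Cilp held 79.6% and 64.8% of the fibroblast-like cells in the fresh libraries and 26.2% in stored 10x, where the cluster led by Dcn and Clec3b held 60.2%. BD 1, labelled fresh, held 31.9% and 66.7% in these clusters and BD 2 held 27.7% and 68.5%, so a makeup like that of stored 10x was also seen in a library labelled fresh. Within the Clec3b cluster, Pdia4 was at 217 and 233 against 129 CPM (log2 -0.79, edgeR adjusted p = 0.0739). Within the Cilp cluster, Pdia4 was at 210 and 222 against 171 CPM (log2 -0.33, edgeR adjusted p = 0.224). Hspa5 was also lower in both, at 714 and 661 against 561 CPM and at 824 and 843 against 628 CPM. These differences (log2 -0.28 and -0.40) did not pass. The Clec3b cluster held only 29 and 38 cells in the fresh libraries. Epithelial RNA moved with storage too: 8 epithelial markers, none of them at 0, summed to 118 and 120 CPM in fresh and 703 CPM in stored fibroblast-like cells, against 5314 to 6127 CPM in epithelial-like cells of the same libraries. Their part in the higher Xbp1 was not tested.

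Of the pathway genes in fibroblast-like cells, 4 of 16 targets of Atf4 and CHOP tested were higher after storage and 0 lower, led by Atf3 (log2 2.10, edgeR adjusted p = 8.78e-12) and Psat1 (1.58, edgeR adjusted p = 0.00667). Atf3 was at 48.8 and 47.8 against 207 CPM. Atf3 stood at 726 and 845 against 768 CPM in epithelial-like cells. The epithelial markers given above were also higher in stored fibroblast-like cells, and the part of epithelial RNA in the Atf3 values was not tested. Psat1 was also lower in fibroblast-like than in epithelial-like cells (log2 -2.78). The part of epithelial RNA in its rise was not tested. Of 16 chaperones and foldases 5 were lower and 0 higher, led by Manf (-0.91, edgeR adjusted p = 0.000251), a secreted ER protein, and the BiP cofactor gene Dnajb11 (-0.75, edgeR adjusted p = 0.00266). Manf was at 535 and 509 against 277 CPM. Of the ERAD and translocon genes 1 of 12 (Selenok, -0.87) and of the sensors 1 of 6 (Atf6, -0.88) were lower. With DESeq2, 3 pathway genes passed in place of 11.

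The difference of the storage effect between fibroblast-like and epithelial-like cells was tested as an interaction over 14499 genes, where 2.31% of genes passed upward and 1.01% downward. No member passed by edgeR or by DESeq2, and 3 had an unadjusted p under 0.05 by edgeR and 0 by DESeq2. By edgeR 2060 of all 14499 genes had an unadjusted p under 0.05. The largest differences were Dnajb9 (0.54, SE 0.19, edgeR adjusted p = 0.2), Sdf2l1 (0.47, SE 0.21, edgeR adjusted p = 0.329) and Xbp1 (0.43, SE 0.15, edgeR adjusted p = 0.187), apart from Trib3 (0.68, SE 0.70). For Hspa5 the difference was 0.06 with an SE of 0.23. A missed threshold in this test does not show that the 2 classes responded alike.

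The platforms were compared on epithelial-like cells labelled fresh, BD 1 (1 library) against the 2 fresh 10x libraries. Ddit3 stood out, at 14 CPM in BD 1 against 37.3 and 32.7 CPM. Sdf2l1 was at 55.9 against 96.5 and 92.5 CPM, Pdia4 at 99.8 against 119 and 127 CPM, and Atf4 at 301 against 197 and 198 CPM. In each of the 4 the BD 1 value lay outside the fresh 10x pair. It did so for Xbp1, Hsp90b1, Herpud1 and Trib3 as well, so this does not set the 4 apart. The share of all genes outside the pair was not counted.

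By edgeR over 14397 genes, 1 member was higher on BD Rhapsody, where 22.7% of genes were, and 3 were lower, where 22.2% were. A share of called members near that of all genes is no result about the members. Ddit3 was lower (log2 -1.47, SE 0.15, edgeR adjusted p = 0.000268), as were Sdf2l1 (-0.91, SE 0.12, edgeR adjusted p = 0.000745) and Pdia4 (-0.45, SE 0.11, edgeR adjusted p = 0.0139), while Atf4 was higher (0.46, SE 0.11, edgeR adjusted p = 0.0129). With total-count scaling the median over all genes moved from 0.01 to 0.16, and Pdia4 no longer passed (-0.30, edgeR adjusted p = 0.0624) while Trib3 did (0.48, edgeR adjusted p = 0.0276). Hspa5 (-0.10), Dnajb9 (-0.15), Hsp90b1 (0.13), Herpud1 (0.01), Xbp1 (0.30) and Trib3 (0.33) did not pass. Without fresh 10x 1, Xbp1 (0.45, edgeR adjusted p = 0.0125) and Dnajb9 (-0.30, edgeR adjusted p = 0.0273) passed, and Dnajb9 also with BD 2 grouped with BD 1 (-0.26, edgeR adjusted p = 0.0479). Of the targets of Atf4 and CHOP 3 of 18 were higher, led by Shmt2 (1.59) and Psat1 (0.99), and 5 lower, led by Nupr1 (-1.54) and Cebpb (-1.17). Of 16 chaperones and foldases 5 were higher, led by Hyou1 (1.32) and Canx (1.18), and 4 lower, led by Fkbp2 (-1.24) and Dnajb11 (-1.18). Of 13 ERAD and translocon genes 3 were higher, led by Syvn1 (0.99) and Os9 (0.89), and 6 lower, led by Selenok (-1.13) and Edem2 (-1.13), and 4 of 6 sensors were higher, led by Atf6b (0.79) and Atf6 (0.71). Platform and tumour cannot be told apart here, since BD 1 is a single library.

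BD 2 against BD 1 has no test, and intervals cover counting error only. In epithelial-like cells the ratio of BD 2 to BD 1 was lowest for Dnajb9, at 0.817 (95% exact interval 0.783 to 0.853), and highest for Sdf2l1, at 1.17 (1.11 to 1.24). Hspa5 stood at 1.01 (0.995 to 1.02), Xbp1 at 0.875 (0.863 to 0.887) and Atf4 at 0.904 (0.882 to 0.927). Pdia4 stood at 1.08 (1.04 to 1.13), Hsp90b1 at 1.06 (1.05 to 1.08), Herpud1 at 0.950 (0.914 to 0.986), Trib3 at 0.856 (0.779 to 0.940) and Ddit3 at 0.947 (0.844 to 1.06). The 8 members with a stored 10x value below both fresh ones did not share a direction here. Dnajb9, Atf4 and Herpud1 were lower in CPM in BD 2 than in BD 1 beyond counting error, and Sdf2l1, Hsp90b1 and Pdia4 higher. CPM takes mitochondrial UMIs into its total. The median mitochondrial share of epithelial-like cells was 15.6% in BD 1 and 19.4% in BD 2. The part of this share in the ratios, that of Herpud1 among them, was not tested. In fibroblast-like cells Hspa5 stood at 0.985 (0.943 to 1.03) and Pdia4 at 1.09 (0.990 to 1.21). The authors also deposited 2 parts of BD 1, named as its replicates 1 and 2, and whether these are separate tumours or captures is not given in the sources used here. Dnajb9 was at 100.1 and 119 CPM in the epithelial-like cells of these parts, and Hspa5 at 892 and 840 CPM.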

How the data were processed

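Single-cell RNA was measured in 5 libraries of PyMT mammary tumours. The authors deposited matrices of raw UMI counts per gene and cell, which hold whole numbers per the file headers. Per the submitters' processing notes, Cell Ranger 3.0.1 and mm10 were used, with no role stated. How BD Rhapsody reads were counted is not given in the sources used here. The cells of 2 further matrices are parts of BD 1 and served only to split it. A pooled fresh 10x matrix, which shares only some cell barcodes with the fresh libraries, was not analysed. The labels of BD 2 conflict on storage, so it has its own group.

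Cells with at least 200 genes were clustered in scanpy 1.11.5 (2000 variable genes scaled within libraries, 30 principal components, 15 neighbours, Leiden resolution 1.0 with igraph 0.11.9), leaving the 10 members and 54 pathway genes out, which gave 23 clusters. Clusters were named from at least 3 markers of a class, each in at least 10% of cells and 2-fold above the median cluster. Epithelial-like clusters were named from at least 5 epithelial markers, each in at least 30% of cells. Other cells stayed unnamed, among them a cluster led by mitochondrial genes. A cluster led by Hba-a1 and Hbb-bs, with 3 of 6 fibroblast markers, also stayed unnamed. Called doublets were left out of fresh 10x 1 (19 cells) and fresh 10x 2 (22 cells). In the other libraries the caller marked 1, 0 and 0 cells, which is too few to have worked, so doublets remain there. Secretory states used epithelial-like cells with at least 2000 UMIs.

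Counts were summed per library and class and tested with edgeR 4.0.16 (TMM, filterByExpr, quasi-likelihood test, Benjamini-Hochberg over all genes tested, threshold 0.05), in R 4.3.3. Comparisons within libraries had the library as a block. DESeq2 1.42.0 and other alternatives are in the closing section. The tests were tried on simulated counts. Levels are UMIs per 1000000, and the correlations and the values by cluster added 1 before the log. Members and lists were chosen with earlier results of these data known. Named beside the members are the 2 genes per pathway list with the largest called change in each direction and the 5 genes most correlated with Hspa5 and with Ddit3, of which 1 is not reported here. Clusters picked out in the text were chosen after their values were seen. PCR duplicates are collapsed by UMI, and intervals cover counting error only.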

Additional observations from a re-analysis of the deposited data

Results flagged for a closer look

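Among the pathway genes, 2 had a storage effect that differed between classes by an interaction test. For Atf3 the log2 effect of storage was 2.17 higher in fibroblast-like than in epithelial-like cells (SE 0.16, edgeR adjusted p = 6.69e-05). Atf3 rose from 48.8 and 47.8 to 207 CPM in fibroblast-like cells and stood at 726, 845 and 768 CPM in epithelial-like cells. Over 9 alternatives the difference was 1.93 to 2.37 and the adjusted p stayed at or below 0.000615. For Vldlr the difference was 1.5 (SE 0.25, edgeR adjusted p = 0.00736), with 18.5 and 23.4 against 44.4 CPM in fibroblast-like cells and 26.8 and 38.5 against 25.1 CPM in epithelial-like cells. The difference for Vldlr was 1.07 to 1.52 over the alternatives, with an adjusted p of up to 0.232. It did not pass with DESeq2, without fresh 10x 2 or within a single fibroblast cluster. Epithelial markers in fibroblast-like cells summed to 118 and 120 CPM in the fresh libraries and 703 CPM in the stored one, and their part in these values was not tested.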

How the results depend on the processing

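The 7 comparisons were refitted under the alternatives. For storage in epithelial-like cells the members called were 0, but 1 with DESeq2, 2 without the filter on low counts, 1 with all 5 libraries sharing the spread and 2 to 4 with a fresh library left out. The genes called were 119, against 183, 750, 325 and 1257 to 1459 in the same order. Leaving a fresh library out used a fit that shares the spread with the BD pair, so the lone library is assumed to vary like it, and it set Xbp1 at -0.13 to 0.28, negative without fresh 10x 2. For storage in fibroblast-like cells 1 member and 1709 genes passed, against 0 and 256 with DESeq2, 0 to 1 and 1019 to 1052 with a fresh library left out, 0 and 203 in the Clec3b cluster and 877 genes in the Cilp cluster (clusters added after seeing the data). There Atf4 reversed to 0.14 in the Clec3b and 0.029 in the Cilp cluster, and Dnajb9 to 0.088 in the Clec3b cluster. For the interaction 481 genes passed, against 170 with DESeq2, 852 without the filter, 882 with total counts, 1035 with doublets kept and 203 in the Clec3b cluster. No member passed under any of the 9 alternatives. Hspa5 reversed to -0.019 with DESeq2, Trib3 to -0.85 and Pdia4 to 0.086 in the Cilp cluster and Herpud1 to 0.28 in the Clec3b cluster. With a fresh library left out, Hspa5 ranged from -0.13 to 0.021 and Atf4 from -0.13 to 0.11 (both negative without fresh 10x 2), and Trib3 from -0.023 to 1.30. For the platforms 6477 genes passed (3274 higher), against 4284 with DESeq2, and with total counts 4005 were higher and 2469 lower. Hspa5 (0.047) and Dnajb9 (0.0029) reversed with total counts and Herpud1 with DESeq2 (-0.011), and Herpud1 ranged from -0.088 to 0.089 with a fresh library left out. Between classes, with a library left out, Hspa5 ranged from -0.14 to 0.0019 (positive without BD 2) and Ddit3 from -0.30 to 0.050 (positive without BD 1). The library is the replicate block in the comparisons within libraries. Without the block, milk-protein calls fell from 8 members and 3531 genes to 0 and 404, and secretoglobin calls from 7 and 3773 to 1 and 406. With a library left out, secretoglobin calls were 2471 to 3557 genes. With total counts the milk-protein split moved from 1806 higher and 1725 lower to 856 and 4301, and without the filter to 1361 and 2506. Without the filter the secretoglobin split moved from 1905 and 1868 to 1371 and 2747. In milk-protein-high cells Ddit3 reversed with total counts (-0.065) and without cycling cells (-0.11), Herpud1 with the top 5% (-0.064), and Trib3 without the filter (-0.022), with total counts (-0.13) and with the top 20% (-0.073), and it ranged from -0.011 to 0.11 with a library left out. In secretoglobin-high cells Ddit3 reversed without the filter (-0.013), with the top 5% (-0.051) and without cycling cells (-0.056), and ranged from -0.11 to 0.16 with a library left out. Sdf2l1 there reversed without the filter (-0.070), with total counts (-0.014), with the top 20% (-0.0080) and with the list's genes left out (-0.0030), and ranged from -0.034 to 0.085 with a library left out. The cause of these changes was not tested. No paired analysis was possible for storage and platform because the groups share fewer than 2 replicate numbers. With 1 stored library, storage and tumour cannot be told apart.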

Other observations

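Plasma cells, which are known for the Xbp1 arm of the response, were too few for a comparison. Taking cells with at least 5% of UMIs from Jchain, Igkc, Igha and Mzb1, there were 0, 0, 1, 9 and 4 cells in fresh 10x 1, fresh 10x 2, stored 10x, BD 1 and BD 2, within the T-like cluster. In the 9 cells of BD 1, Xbp1 was at 2677 CPM (497 UMIs), against 1009 CPM in epithelial-like cells of that library. Herpud1 was at 1444 CPM (268 UMIs) against 127 CPM, and Hsp90b1 at 2861 CPM (531 UMIs) against 758 CPM. In BD 2, Herpud1 was at 1076 CPM (53 UMIs) and Xbp1 at 1136 CPM (56 UMIs). Ddit3 rested on 1, 1 and 2 UMIs in these cells of stored 10x, BD 1 and BD 2. The 9 cells held 3.48% of all Herpud1 UMIs of BD 1.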
